A study of Mus musculus with 6 samples.

Results

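The replication-dependent histone genes are the genes of the Hist1, Hist2, Hist3 and Hist4 clusters, taken as every row of the counts table whose symbol begins with Hist1h, Hist2h, Hist3h or Hist4h. They were 70 of the 44788 gene symbols in the table. By the histone type in the symbol, 6 were linker histone H1 genes, 20 H2A genes, 19 H2B genes, 12 H3 genes and 13 H4 genes. Among these, Hist1h2al, Hist1h2aj and Hist3h2bb-ps are annotated as pseudogenes. By symbol, 56 of them belonged to Hist1, 10 to Hist2, 3 to Hist3 and 1 to Hist4. In the GENCODE M21 annotation of the mouse build GRCm38 these lay on chromosomes 13, 3, 11 and 6, in that order. Hist1h2al, at chr13:51202727-51203065, lay far from the other Hist1 members.

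H2A, H2B, H3 and H4 form the protein core on which DNA is wound into nucleosomes, and H1 binds the DNA between nucleosomes. Most of these genes are transcribed during S phase, when new chromatin is built on copied DNA. Their messages usually carry no poly(A) tail. They end a few bases after a short stem-loop that the stem-loop binding protein Slbp holds, and they are cut there with the help of the U7 small nuclear RNA and its partners Lsm10, Lsm11 and Zfp473. Some members can also be made as longer, polyadenylated messages, a form known from cells that have left the cell cycle. In the uterus around implantation, epithelial and stromal cells pass through waves of division set by estrogen and progesterone.

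The libraries came from the endometrium of female ICR mice, an outbred strain, on day 4 of pregnancy. Both groups were dosed as newborns, from day 2 to day 5 of life, with oral tamoxifen at 2.7 µmol/kg. This induces adenomyosis, the growth of endometrium into the uterine muscle, and only mice with that diagnosis on uterine sections were used. After 75 days the 16 mice were divided. In the agonist group, 8 mice had intraperitoneal injections of 1.5 µg per 100 g of body weight per day of the gonadotropin-releasing hormone (GnRH) agonist spelled Decapetyl in the labels, given on days 3 to 9 of estrus. The no-agonist group, another 8 mice, had the solvent, and all were mated 4 weeks later. Each group has 3 libraries of total RNA. No label says which mouse or mice a library came from, so the p-values measure the spread between libraries, and there is no group without adenomyosis. The tissue was scraped from the uterus, so it holds several cell types, and in such bulk samples fewer cells of a type and less RNA per cell cannot be told apart.

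The libraries held 11720958 to 14104266 counted reads, and few of them fell on the 70 histone genes. The share was lowest in no-agonist library 1, at 0.0100% (exact Clopper-Pearson 95% interval 0.00949% to 0.0106%), and highest in agonist library 1, at 0.0232% (0.0224% to 0.0241%). These intervals cover counting error only. All 10 genes of the endometrium marker list, Pgr and Esr1 among them, passed the filter on low counts. The count of the 18S ribosomal RNA row (Rn18s-rs5) stood apart in no-agonist library 2, at 3.31% of its reads (3.30% to 3.32%), and agonist library 1, at 1.94% (1.94% to 1.95%), against 0.254% to 0.369% in the other 4. Over the 16581 genes with enough reads, edgeR's quasi-likelihood test called 0 at a Benjamini-Hochberg adjusted p under 0.05, and before adjustment 691 genes were higher with the agonist and 844 lower. With DESeq2 the counts were 139 genes higher and 251 lower. The likelihood ratio test of edgeR gave 104 higher and 164 lower, while limma-voom gave 0 in each direction.

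The stem-loop was searched for on the transcript strand of every annotated transcript, as GG, 3 bases that are C or T, and T, then a loop of 4 bases that are A, C or T, then the 6 bases that pair with the first 6. In all, 46 of the 70 genes held a match after the stop codon, in the 3′ untranslated region. Of the other 55271 annotated genes, 63 (0.114%) held a match at any position of a transcript, coding or not. The sequences below are those of the members with the most reads that have a match, of the 2 genes that end close to it and passed the filter, and of the less common forms. They are given 5′ to 3′ as DNA letters of the transcript (GENCODE M21, GRCm38), with the 16 bases of the stem-loop in capitals.
Hist1h1c (H1, chr13:23739507-23739532, plus strand): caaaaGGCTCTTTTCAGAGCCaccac
Hist3h2a (H2A, chr11:58955167-58955192, plus strand): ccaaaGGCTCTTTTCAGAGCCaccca
Hist2h3c1 (H3, chr3:96247322-96247347, plus strand): acaaaGGCTCTTTTCAGAGCCaccac
Hist1h4i (H4, chr13:22040961-22040986, minus strand): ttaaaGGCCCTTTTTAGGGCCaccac
Hist3h2ba (H2B, chr11:58949344-58949369, plus strand): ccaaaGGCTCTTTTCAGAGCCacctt
Hist1h2ao (H2A, chr13:21810893-21810918, plus strand): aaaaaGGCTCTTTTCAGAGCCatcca
Hist1h2ap (H2A, chr13:21833026-21833049, minus strand): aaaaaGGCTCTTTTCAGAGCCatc
Hist1h2bk (H2B, chr13:22036295-22036320, plus strand): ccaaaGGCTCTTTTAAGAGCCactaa
Hist1h4d (H4, chr13:23581945-23581970, plus strand): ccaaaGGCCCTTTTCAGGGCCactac
Hist1h4j (H4, chr13:21735432-21735457, plus strand): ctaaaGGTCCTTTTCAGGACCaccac
Hist1h4a (H4, chr13:23760795-23760820, minus strand): ccaaaGGCCCTTCTCAGGGCCgccca
Hist1h3g (H3, chr13:23535884-23535909, plus strand): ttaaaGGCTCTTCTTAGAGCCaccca
Hist2h2ac (H2A, chr3:96220413-96220438, minus strand): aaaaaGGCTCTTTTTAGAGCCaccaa

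The form printed for Hist1h1c was the most frequent, in 26 genes of the H1, H2A, H2B and H3 types. The form of Hist1h2bk was in 6 genes of the H1, H2B and H3 types. Every H4 gene with a match had another stem: 7 had the form of Hist1h4d, 2 that of Hist1h4i, 2 that of Hist1h4j and 1 that of Hist1h4a. The stem-loop began 21 to 58 bases after the stop codon, with a median of 31.

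How far the annotated transcript goes on after the stem-loop divided these genes. In 23 it ran on for more than 100 bases, in 23 it ended within 100 bases, and 24 had no match. This division was chosen after the values were seen. A poly(A) signal, AATAAA or ATTAAA, stood in the last 40 bases of an annotated transcript of 17 of the 70 genes, against 42.9% of all other annotated genes. No match says only that these letters are not in the annotated model.

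Reads on these genes were few and very uneven. Over the 6 libraries they added up to 12568, and the median gene had 17. Hist1h2aa, known from testis, had 0 reads, 20 genes had 1 to 10, 25 had 11 to 30, 9 had 31 to 100 and 15 had over 100. A count of 0 in a library allows up to 3 reads, which is 0.203 to 0.275 CPM (read counts scaled to a common library size, with TMM factors). In all, 34 genes had at least 1 read in every library.

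The 6 genes with the most reads were Hist1h1c with 3963, Hist3h2a with 3297, Hist1h2bc with 1414, Hist2h2be with 590, Hist2h3c1 with 431 and Hist1h4i with 417. Together they took 80.5% of the reads of all 70 genes, from 76.1% (74.1% to 78.1%) in no-agonist library 2 to 85.8% (84.4% to 87.1%) in no-agonist library 3. Of these 6, all but Hist1h2bc had a poly(A) signal at the annotated end, and Hist1h1c, Hist3h2a, Hist2h3c1 and Hist1h4i, whose stem-loops are printed above, ran on past the stem-loop. Hist1h2bc and Hist2h2be had no match. The 17 genes with the poly(A) signal held 9217 reads, or 73.3%.

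The 23 genes that run on past the stem-loop held 9349 reads, 74.4% of the total, with a median of 70 per gene. The 23 that end near it held 610 reads, 4.85%, with a median of 14. The 24 without a match held 2609 reads, 20.8%, with a median of 12.5. Per kilobase of annotated exon the medians were close to each other, at 0.350 CPM per kb for genes that run on, 0.336 for those that end near and 0.453 for those without a match. The 3 highest levels per kilobase, in CPM per kb, were 34.4 for Hist1h1c, 20.4 for Hist3h2a and 16.4 for Hist1h2bc.

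**Figure D1:**
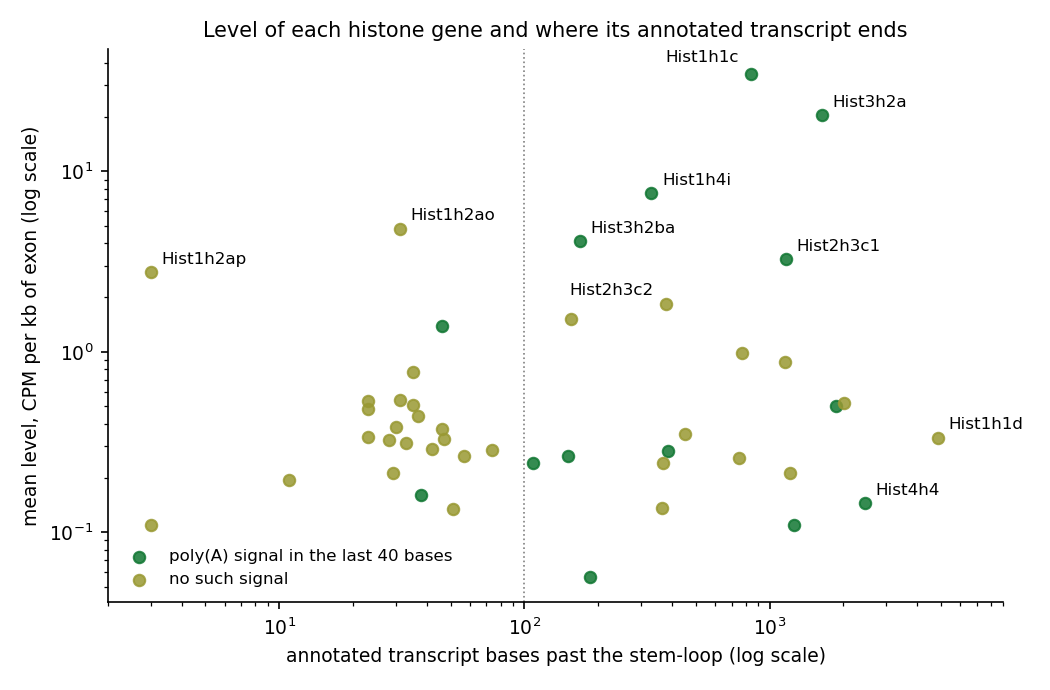
Each point is 1 of the 46 histone genes with a stem-loop match, with the bases its annotated transcript runs past the stem-loop on the x axis and its mean level over the 6 libraries in CPM per kb of exon on the y axis, both on log scales. The highest levels belong to genes that run on and carry a poly(A) signal (Hist1h1c at 34.4 and Hist3h2a at 20.4 CPM per kb), while most points on both sides of the dotted line at 100 bases lie at low levels.

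Copies within a type resemble each other, which bears on how the counts can be read. For 36 of the 70 genes, over 50% of the 50-base stretches of the transcript also occurred in another gene's transcript. Stretches were compared on both strands with every annotated gene, also genes that overlap at the same locus. The median share was 24.6% for genes that run on past the stem-loop, 60.4% for those that end near it and 84.3% for those without a match. The part of this sharing in the read totals of these classes was not tested. The share was 93.5% for Hist1h2ao and 93.1% for Hist1h2ap, each with the other as the gene sharing the most. It was 100% for Hist2h3c1 and Hist2h2bb, but there the gene sharing the most was an overlapping model. This was Gm20634 on the same strand for Hist2h3c1 and Gm20628 on the opposite strand for Hist2h2bb, and neither has a row in the counts. Counts of these members are uncertain as counts of 1 gene. Hist1h1c, at 8.5%, and Hist2h2be, at 0%, shared little. In the annotation 26 of the genes overlap another gene, mostly a small RNA model on the opposite strand. Hist3h2a overlaps exons of Trim17 on the same strand and Hist1h1e overlaps Hist1h2be. The sources used here do not say how the counting dealt with strand or with reads that match several genes. Sums over a type are therefore set beside the single genes.

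The comparison asks what the endometrium of mice with induced adenomyosis expressed after the agonist, against solvent. The summed level of all 70 histone genes was 99.2, 156 and 245 CPM in no-agonist libraries 1 to 3, and 227, 155 and 127 CPM in agonist libraries 1 to 3. The groups overlapped fully: the lowest and the highest library both had no agonist. The means were 167 ± 73.3 CPM without and 170 ± 51.6 CPM with the agonist (SD, n = 3 each), a log2 ratio of 0.03 beside a spread between libraries of 0.55 (pooled SD on the log2 scale).

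By type, the log2 ratio of the group means was -0.12 for H1, 0.27 for H2A, -0.04 for H2B, -0.33 for H3 and 0.19 for H4. The pooled SDs were 0.87, 0.33, 0.40, 0.68 and 0.62 in the same order, each larger than its ratio, and the groups overlapped in all 5 types. Leaving out 1 library turned the sign for 4 types: H1 was 0.59 when no-agonist library 3 was dropped and 0.17 when agonist library 3 was, H3 was 0.18 without no-agonist library 3, and H4 was -0.09 without no-agonist library 1 or agonist library 1. H2B ran from -0.26 to 0.16 and was positive without any 1 of no-agonist libraries 2 and 3 and agonist libraries 2 and 3, while H2A stayed positive, from 0.08 to 0.49. With library totals in place of TMM scaling H1 was 0.05 and H2B 0.14, and H3 was 0.09 over the members that share no more than 50% of their 50-base stretches. That cut left out both tested H3 genes, Hist2h3c1 and Hist2h3c2, which had 431 and 141 of the 715 H3 reads. H1 genes took 34.6% of the reads, H2A 32.3%, H2B 21.9%, H3 5.69% and H4 5.50%. In percentage points the H1 share differed most between libraries, from 24.3% (22.3% to 26.5%) in agonist library 3 to 44.5% (42.7% to 46.5%) in no-agonist library 3.

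**Figure D2:**
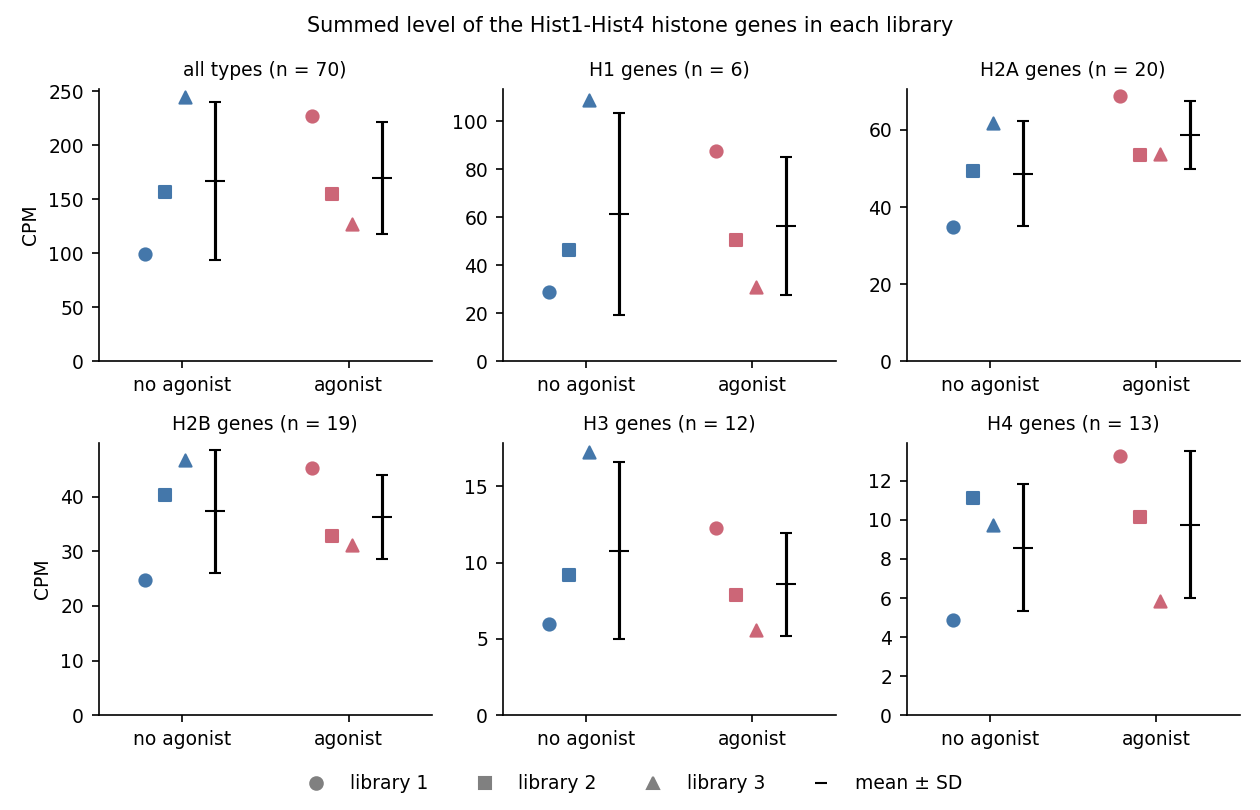
Summed CPM of the histone genes in each library, for all 70 and for each type, with symbols for library 1, 2 and 3 of each group (library numbers do not pair the groups) and black bars for the mean ± SD of 3 libraries. In every panel the groups overlap, and no-agonist library 3 and agonist library 1 are the highest of their groups for all types together (245 and 227 CPM).

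In the fit over all genes, 18 of the 70 passed the filter on low counts and 52 did not. The lowest tested gene had a mean of 0.937 CPM and the highest untested 0.649 CPM. Of the 18 tested, 0 were called at an adjusted p under 0.05 by edgeR's quasi-likelihood test, beside 0% of all genes tested. At an unadjusted p under 0.05 the count was also 0 in both directions, beside 4.17% of all genes higher and 5.09% lower. DESeq2, edgeR's likelihood ratio test and limma-voom also called 0 of the 18 after adjustment. The fold change was positive in 10 and negative in 8, with a median log2 fold change of 0.05, against 0.02 over all genes tested. None of the 18 had groups that did not overlap, beside 6.94% of all genes with the agonist group wholly higher and 7.61% wholly lower. A missed threshold does not show that the levels did not differ: the standard errors on the log2 scale ran from 0.26 for Hist3h2a to over 1 for Hist1h2ap and Hist1h2ac.

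**Figure D3:**
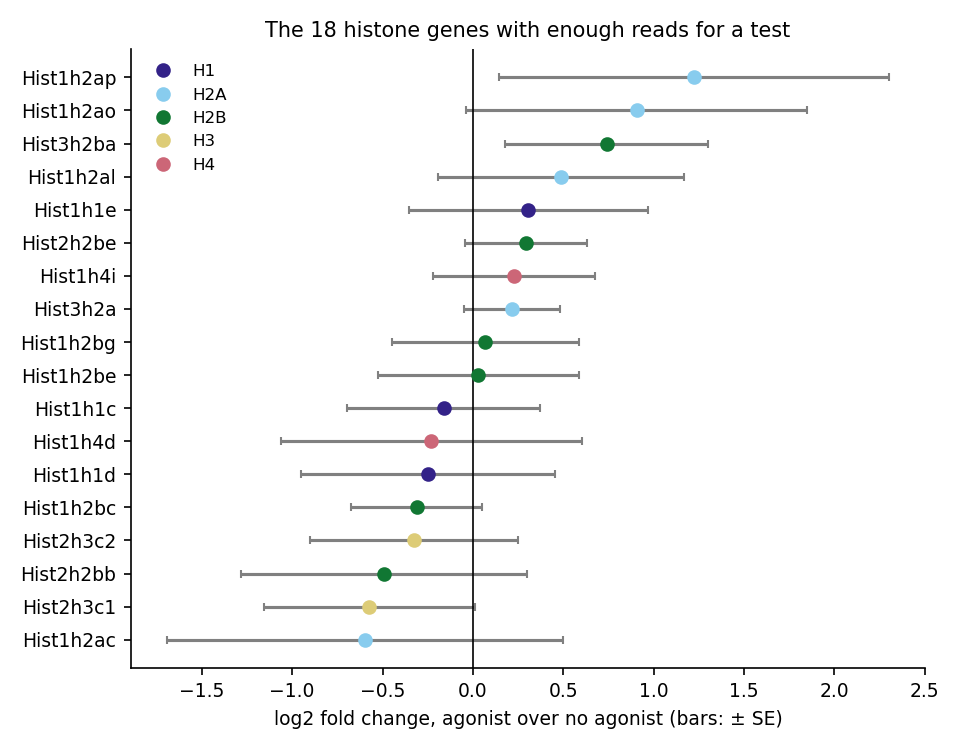
Log2 fold change (agonist over no agonist) of the 18 histone genes with enough reads for a test, ordered by size, with bars of 1 standard error and colours for the histone type. Values run from -0.60 for Hist1h2ac to 1.22 for Hist1h2ap, and genes of H1, H2A, H2B and H4 lie on both sides of 0, while both H3 genes lie below it.

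Among the linker histones, Hist1h1c, which encodes the H1.2 protein found in most somatic tissues, was measured at 27.3, 41.4 and 101 CPM without the agonist and 78.4, 45.4 and 28.3 CPM with it. It was high in no-agonist library 3 and agonist library 1 and low in a library of each group. Its log2 fold change was -0.16 ± 0.53 (SE; adjusted p = 0.964, edgeR's quasi-likelihood test). With library totals in place of TMM scaling the value was 0.01, the only 1 of the 18 whose sign changed with the scaling. Hist1h1d and Hist1h1e were far lower, at 0.828, 2.87 and 4.40 against 3.68, 2.10 and 0.998 CPM for Hist1h1d. Hist1h1e read 0.603, 1.30 and 2.66 without and 3.12, 1.36 and 1.15 CPM with the agonist. As for Hist1h1c, no-agonist library 3 and agonist library 1 were the 2 highest for each. Hist1h1b, an H1 gene of dividing cells, had too few reads for the test, with 0, 3 and 3 reads without the agonist and 13, 15 and 3 with it. The testis form Hist1h1t had 4 reads in all.

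Among H2A genes, Hist3h2a, a gene outside the large cluster, had the smallest standard error of the 18. It was measured at 29.5, 37.0 and 55.0 CPM without and 53.5, 39.2 and 48.6 CPM with the agonist, a log2 fold change of 0.22 ± 0.26 (SE; adjusted p = 0.864, edgeR). The lowest and the highest library both had no agonist, and the groups overlapped. Hist1h2ao and Hist1h2ap, near-identical copies that end close to the stem-loop, followed another order. Hist1h2ao had 13, 41 and 3 reads without the agonist and 37, 78 and 10 with it, and Hist1h2ap had 3, 24 and 1 against 10, 57 and 12. Agonist library 2 was the highest for both and no-agonist library 3 the lowest, the library in which Hist1h1c was highest. Their log2 fold changes were 0.91 ± 0.94 and 1.22 ± 1.08 (SE; adjusted p = 0.834 and 0.792, edgeR). These values rest on single libraries: without no-agonist library 2 they were 2.23 and 3.46, and without agonist library 2 they were 0.21 and 0.11. Hist1h2al, annotated as a processed pseudogene, read 1.13, 1.82 and 2.29 against 4.96, 0.949 and 1.46 CPM, with agonist library 1 alone well above the rest. Hist1h2ac read 0.226, 1.22 and 3.21 against 2.16, 0.813 and 0.0768 CPM, again highest in no-agonist library 3 and agonist library 1.

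Among H2B genes, Hist1h2bc was measured at 15.1, 20.3 and 27.8 CPM without and 24.2, 15.9 and 10.7 CPM with the agonist, a log2 fold change of -0.31 ± 0.36 (SE; adjusted p = 0.857, edgeR). Its highest and lowest libraries were in different groups, and the groups overlapped. Hist2h2be read 5.65, 8.94 and 6.32 against 7.61, 7.45 and 10.6 CPM, with a log2 fold change of 0.29 ± 0.34. Hist3h2ba, near Hist3h2a on chromosome 11, had the smallest p of the 18, at 0.828, 1.56 and 3.30 against 2.32, 3.46 and 3.69 CPM. The log2 fold change was 0.74 ± 0.56 (SE; adjusted p = 0.748, edgeR), and no-agonist library 3 lay inside the agonist range. Hist2h2bb read 0.603, 3.99 and 3.67 against 2.64, 0.610 and 2.61 CPM, with 1 low library in each group. Hist1h2be and Hist1h2bg had log2 fold changes of 0.03 ± 0.56 and 0.07 ± 0.52.

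Of the H3 genes, 2 passed the filter, both from the Hist2 cluster. Hist2h3c1 was measured at 3.16, 5.56 and 12.6 CPM without and 7.37, 3.39 and 3.53 CPM with the agonist, a log2 fold change of -0.57 ± 0.58 (SE; adjusted p = 0.829, edgeR). Hist2h3c2 read 1.96, 1.04 and 3.30 against 2.40, 1.69 and 0.921 CPM. No-agonist library 3 was again the highest for both, and the groups overlapped. Hist1h3d had 2 to 5 reads and Hist1h3i 1 to 8 reads per library.

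Of the H4 genes, Hist1h4i was measured at 2.71, 5.82 and 6.69 CPM without and 6.16, 7.45 and 4.15 CPM with the agonist, a log2 fold change of 0.23 ± 0.45 (SE; adjusted p = 0.922, edgeR). Hist1h4d read 0.377, 2.08 and 1.19 against 1.92, 0.949 and 0.230 CPM. Both had overlapping groups. Hist1h4h had 6, 7 and 7 reads without the agonist and 22, 3 and 3 with it, and Hist4h4 had 6, 3 and 3 against 8, 7 and 5. Hist1h4k was the only 1 of all 70 genes whose groups did not overlap, beside the 6.94% of tested genes given above. It had 0, 1 and 0 reads without and 4, 2 and 4 reads with the agonist, counts around the level that a count of 0 allows.

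**Figure D4:**
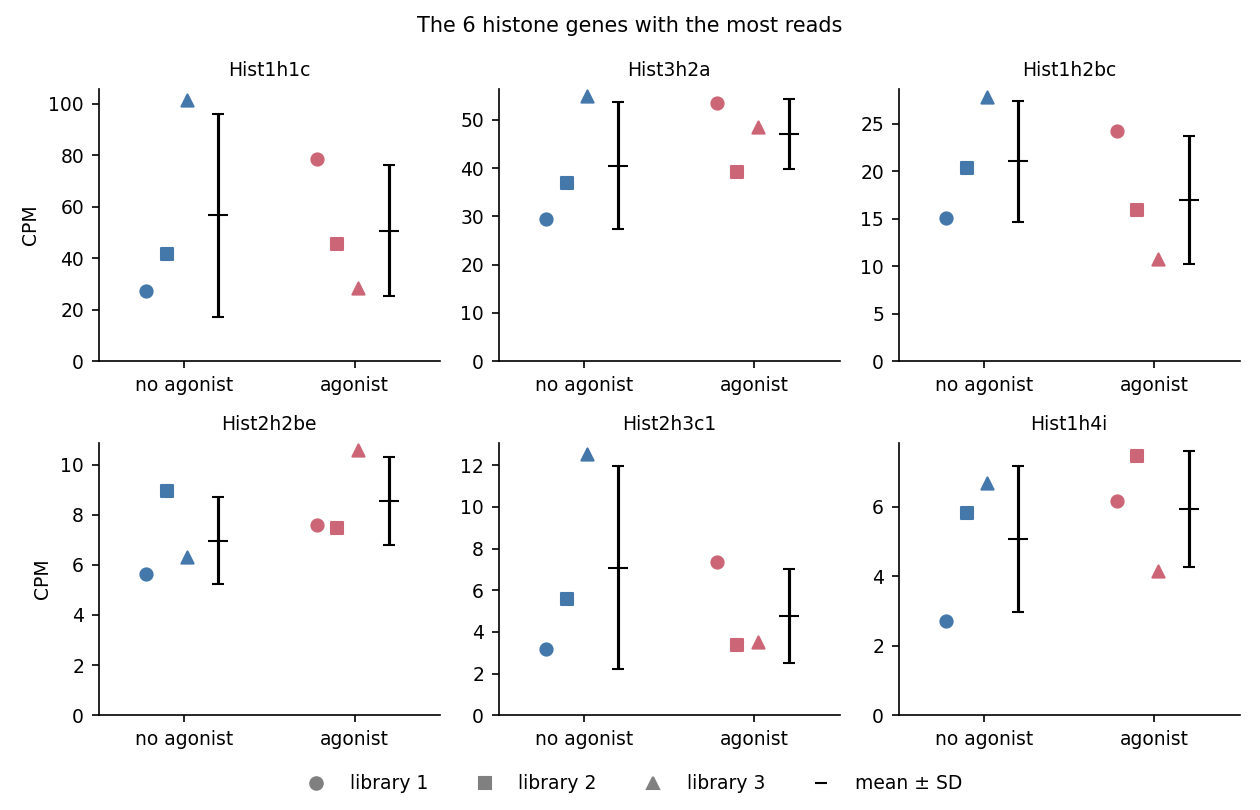
CPM in each library of the 6 histone genes with the most reads, with symbols for library 1, 2 and 3 of each group and black bars for the mean ± SD of 3 libraries. Hist1h1c, Hist3h2a, Hist1h2bc and Hist2h3c1 are highest in no-agonist library 3 (101, 55.0, 27.8 and 12.6 CPM). Hist2h2be is highest in agonist library 3 (10.6 CPM) and Hist1h4i in agonist library 2 (7.45 CPM).

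Several low genes rested on 1 or a few libraries. Hist1h3g had 0 reads in every no-agonist library and 2, 13 and 0 with the agonist. Hist1h4a had 9 reads in no-agonist library 2 and 0 in the other 5. Hist2h2aa1 had 18, 2 and 0 reads against 10, 1 and 4. Every 50-base stretch of it also occurs in another gene, with Gm20633, an overlapping antisense model, sharing the most. The other 64 genes beside the 6 most read summed to 29.3 ± 11.8 CPM without and 35.8 ± 14.3 CPM with the agonist (SD, n = 3 each), also with overlapping groups.

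Genes grouped by where the annotated transcript ends took different orders over the libraries. The 23 that run on past the stem-loop summed to 70.6, 107 and 200 CPM without and 170, 111 and 95.1 CPM with the agonist, a log2 ratio of -0.01. The 23 that end near it summed to 4.67, 10.3 and 2.93 CPM without and 10.6, 13.6 and 4.99 CPM with the agonist, a log2 ratio of 0.70 with a pooled SD of 0.84. So no-agonist library 3 was the highest for the first and the lowest for the second. Much of the second sum came from Hist1h2ao and Hist1h2ap: without them it was 3.46, 4.69 and 2.57 against 6.80, 4.41 and 3.30 CPM, with no-agonist library 3 still the lowest but agonist library 1, not 2, the highest. The 24 genes without a match summed to 23.9, 38.9 and 41.6 CPM without and 46.9, 30.5 and 27.2 CPM with the agonist. For these, agonist library 1 was the highest, followed by no-agonist library 3.

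The genes of DNA replication and the G1/S step, 40 in the list, summed to 1789, 1639 and 681 CPM without and 1402, 3464 and 1214 CPM with the agonist. The 24 genes of mitosis summed to 411, 757 and 229 against 898, 1827 and 379 CPM. For both lists no-agonist library 3 was the lowest and agonist library 2 the highest, as for the sum of the histone genes that end near the stem-loop. Without Hist1h2ao and Hist1h2ap that sum shared only the lowest library with the 2 lists. Hist1h1c and the sum of the genes that run on had no-agonist library 3 as their highest. The log2 fold change was positive in 39 of the 40 replication genes, with 0 at an unadjusted p under 0.05 and a median of 0.66. It was positive in 24 of 24 mitosis genes, with 3 at an unadjusted p under 0.05 and a median of 1.19. Over all genes tested it was positive in 8657 of 16581, with 4.17% higher at an unadjusted p under 0.05 and a median of 0.02. After adjustment by edgeR, 0 genes of either list were called.

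Other measures also moved between the libraries. The 10 smooth muscle markers, all with negative fold changes and 0 at an unadjusted p under 0.05, summed to 8244, 7735 and 19761 CPM without and 12110, 3033 and 3722 CPM with the agonist, so the 2 libraries highest for Hist1h1c were the 2 highest for these markers. The 15 small RNAs known to lack a poly(A) tail summed to 13.0, 113 and 18.3 against 90.4, 3.86 and 10.4 CPM, and no-agonist library 2 and agonist library 1 were far above the others, as for 18S ribosomal RNA. The 15 epithelial markers summed to 10540, 15665 and 13526 CPM without and 8812, 6969 and 5657 CPM with the agonist. All 15 had negative fold changes, 8 of them at an unadjusted p under 0.05. Of all 16581 genes tested, 7924 had negative fold changes, and 5.09% were lower at that threshold. The part of cell makeup and of RNA without poly(A) tails in the histone values was not tested.

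**Figure D5:**
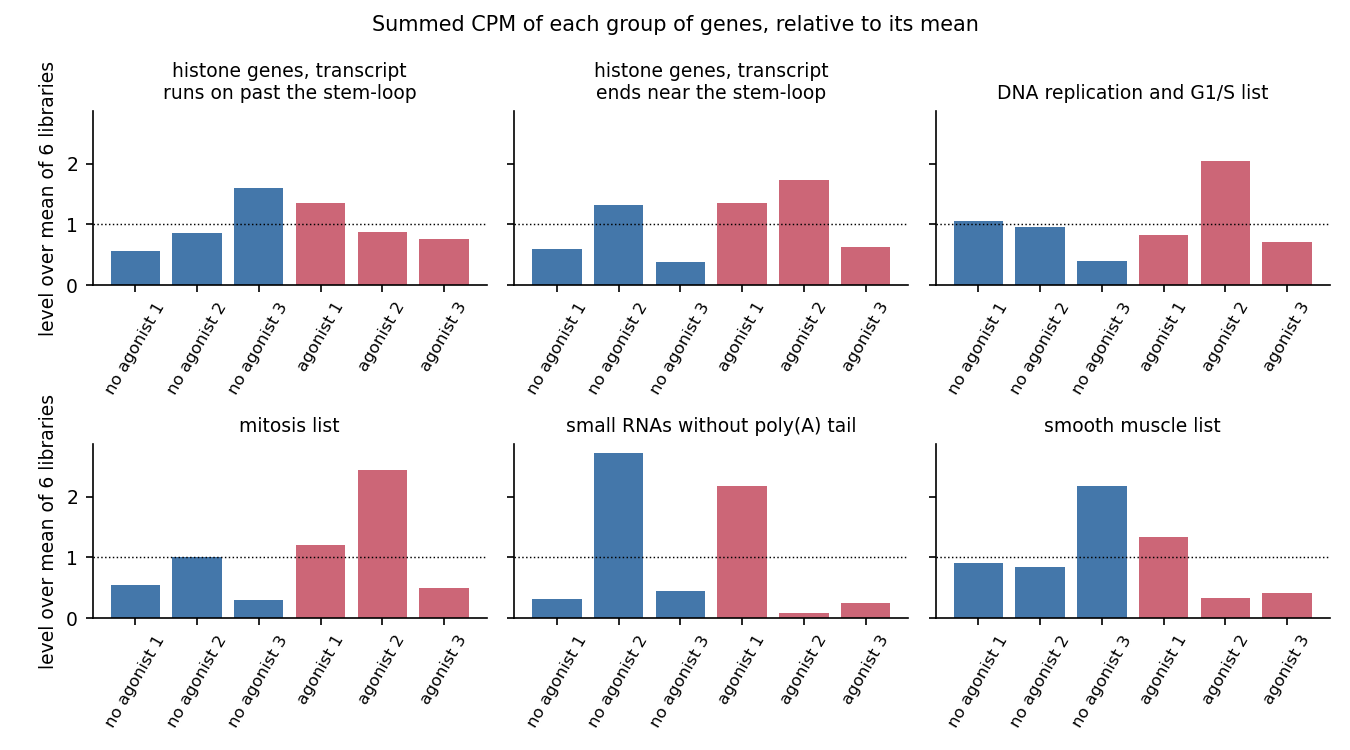
Summed CPM of 6 groups of genes in each library, divided by the mean of the 6 libraries (dotted line at 1), with no-agonist libraries in blue and agonist libraries in red. No-agonist library 3 stands at 1.59 for histone genes that run on past the stem-loop and 2.17 for smooth muscle markers, but at 0.37 for histone genes that end near it, 0.40 for DNA replication and 0.31 for mitosis.

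The list of factors that make and mature these messages held 21 genes, all tested. The U7 RNA itself (Rnu7), in another list, had 42 reads in all, too few for a test. Of the 21 genes, 13 had positive and 8 negative fold changes, with a median log2 fold change of 0.12, and 1 was at an unadjusted p under 0.05, a count near the 4.17% of all genes tested that were higher at that threshold. That gene was Npat, which carries cyclin E signals to the histone promoters, at 13.5, 8.42 and 12.6 CPM without and 14.2, 20.7 and 22.3 CPM with the agonist. It was also the only 1 of the 21 whose groups did not overlap, beside 6.94% of all genes tested, and its log2 fold change was 0.73 ± 0.30 (SE; adjusted p = 0.527, edgeR). Slbp, the stem-loop binding protein, read 32.9, 48.9 and 30.9 against 35.6, 67.4 and 44.7 CPM, with overlapping groups and a log2 fold change of 0.39 ± 0.29 (adjusted p = 0.747, edgeR). Casp8ap2, a partner of Npat at histone loci, had a log2 fold change of 0.35 ± 0.32. Of the U7 particle proteins, Lsm10 had 0.40 ± 0.24 and Lsm11 -0.12 ± 0.24, and Zfp473, the zinc finger protein of the same complex, had 0.94 ± 0.56.

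Histone chaperones carry newly made histones to DNA. Of 20 in the list, 17 had positive fold changes, with a median of 0.27 on the log2 scale, beside 8657 positive of all 16581 genes tested. Npm1 and Nap1l1, 2 of the 20, were higher at an unadjusted p under 0.05, beside 4.17% of all genes tested. Their log2 fold changes were 0.63 ± 0.21 and 0.51 ± 0.20 (adjusted p = 0.406 and 0.508, edgeR). The groups did not overlap for 3 of the 20, Npm1, Nap1l1 and Tonsl, all higher with the agonist, beside 6.94% of all genes tested. Npm1 read 195, 279 and 229 CPM with the agonist against 149, 146 and 159 CPM without.

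Most replacement and variant histones are made through the cell cycle from ordinary polyadenylated messages. Per kilobase of exon, the 5 with the most reads lay above the highest clustered gene, Hist1h1c at 34.4 CPM per kb, though H2afy did so by less than the spread between libraries. The mean level was 158 CPM per kb for H3f3b, which encodes H3.3, 109 for H2afx, 91.6 for H1f0, 54.9 for H2afv and 34.9 for H2afy. Summed over all members of a type, the clustered genes reached 37.0 CPM per kb for H1, 40.9 for H2A, 35.3 for H2B, 8.11 for H3 and 12.8 for H4.

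Of 15 variants listed, 11 were tested and 9 had positive fold changes, beside 8657 of all 16581 genes tested. Their median log2 fold change was 0.42. H1fx and H2afy2, 2 of the 11, were higher at an unadjusted p under 0.05, beside 4.17% of all genes tested. After adjustment by edgeR 0 were called. H3f3b was measured at 402, 461 and 534 CPM without and 534, 427 and 462 CPM with the agonist, a log2 fold change of 0.03 ± 0.22. H1f0, the H1 of resting cells, read 141, 167 and 251 against 222, 195 and 152 CPM, with no-agonist library 3 and agonist library 1 again the highest of their groups, as for Hist1h1c. H2afx, whose gene makes both stem-loop and polyadenylated messages, read 93.0, 188 and 81.9 against 150, 319 and 71.4 CPM, with agonist library 2 the highest. The groups did not overlap for 3 of the 11, H2afv, H3f3a and H1fx, all higher with the agonist, beside 6.94% of all genes tested. H2afv read 76.8, 89.3 and 64.2 against 122, 91.6 and 94.1 CPM, with a log2 fold change of 0.42 ± 0.21 (adjusted p = 0.604, edgeR). H1fx, a linker histone outside the clusters, read 4.29, 6.43 and 4.22 against 13.1, 18.8 and 7.52 CPM, with a log2 fold change of 1.40 ± 0.41 (adjusted p = 0.364, edgeR). H3f3a, which also encodes H3.3, had a log2 fold change of 0.23 ± 0.16 (adjusted p = 0.724, edgeR). H2afy had a log2 fold change of -0.14 ± 0.21.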

How the data were processed

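The authors deposited raw read counts per gene symbol for 6 libraries, with no normalization recorded. Per the labels' protocols, total RNA (integrity number above 8.0) was sequenced single-end on Ion Proton machines after library preparation by the Ion Total RNA-Seq Kit, and no poly(A) selection or ribosomal RNA removal is named. Per the submitters' processing notes, HTSeq 0.6.1 and mm10 (GRCm38) were used. The sources used here give no aligner, annotation, strand setting or filter.

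In R 4.3.3, edgeR 4.0.16 (filterByExpr, TMM, quasi-likelihood F-test, two-sided, Benjamini-Hochberg over 16581 genes) compared 3 agonist with 3 no-agonist libraries. The script was tested on simulated data. Levels, as mean ± SD, are CPM on TMM-scaled sizes. Sums, lists and medians are descriptions without a test. Alternatives used DESeq2 1.42.0, limma 3.58.1, other scalings and filters, and left out each library. Depth limits single low genes: a count of 0 allows 3 reads, counting error only.

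The 70 symbols were all found in GENCODE M21, which gave positions, transcripts and the stem-loop sequences. Named genes were, per histone type, up to 4 with the highest mean CPM and up to 2 others with the smallest p, with 6 processing factors, the 5 most abundant variants and members whose groups did not overlap. The chaperones Npm1, Nap1l1 and Tonsl were named as those with the smallest p in their list. H1fx, H3f3a, H2afy2, Rnu7, Hist1h3g, Hist1h4a, Hist2h2aa1, Hist1h1t and Hist1h2aa, and the less common stem-loop forms, were named after their values were seen. The members and the 18 gene lists were chosen with earlier results of these data known.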

Additional observations from a re-analysis of the deposited data

How the results depend on the processing

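The number of histone genes called was 0 under all 15 alternatives. Counts over all genes depended on the method, with 139 higher and 251 lower by DESeq2, 104 higher and 164 lower by edgeR's likelihood ratio test, and 8 higher and 28 lower without a filter on low counts, against 0 in both directions in the reported test. Leaving out each library in turn gave 0 to 1 genes called lower (1 without no-agonist library 2). Without the filter 1 of 69 histone genes was higher at an unadjusted p under 0.05, Hist1h3g (adjusted p = 0.526, edgeR), beside 1054 of all 28089 genes tested. Leaving out libraries gave 0 to 1 such genes: Hist1h2ap without no-agonist library 2, Hist3h2ba without no-agonist library 3 and Hist1h1b without agonist library 3. These were 1 of 20, 1 of 21 and 1 of 21 histone genes tested. Beside them, 612 of 17136, 591 of 17112 and 528 of 17033 of all genes tested were higher at that threshold. With 1 library left out, the median log2 fold change of the tested histone genes ran from -0.47, without agonist library 1, to 0.42. The summed level ran from -0.24 to 0.42, so the direction of both changed when 1 library was left out. Without no-agonist library 3, 15 of the 18 tested genes had positive fold changes, and without agonist library 1, 6 did. The genes that end near the stem-loop had a summed log2 ratio of 0.70, an alternative chosen after seeing the data. With library totals alone the median of all genes was 0.18 and the summed histone level 0.20. The causes were not tested. No paired analysis was possible because the labels share no replicate numbers, litter or batch between the groups. Most histone genes had too few reads for a test, and the depth limits what can be seen of them.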
